A study of Mus musculus with 8 samples.

Results

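Hox genes encode homeodomain transcription factors that give cells their position along the body axis. In mammals they lie in 4 clusters, Hoxa to Hoxd, and carry a paralogue number that follows their order in the cluster. Low-numbered genes are used towards the head and high-numbered genes towards the tail, and cells of adult tissues, adipocytes and their precursors among them, keep a Hox pattern that reflects where their depot lies. Hoxc8 is known as a gene of white rather than brown fat and as a repressor of Cebpb, a driver of adipogenesis.

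The family comprised the 39 genes with Hoxa, Hoxb, Hoxc or Hoxd symbols and a paralogue number, of 31053 genes in the count table, with antisense and host transcripts left out. It was chosen from the difference between Cd36KO and WT in these same libraries, because Hoxc8 was among the genes with the largest fall. Differences between the groups are therefore given as a description and support nothing about the family. Gene expression was measured by bulk RNA-seq in brown adipose tissue (BAT), the heat-producing fat depot, of C57BL6/J mice labelled as 8 weeks old, in 4 WT and 4 Cd36KO libraries. CD36 is a scavenger receptor for lipids and vesicles. The labels give the altered genotype only as Cd36KO, while the study ascribes its BAT transcriptome to mice in which a Csf1r-driven Cre removes a floxed Cd36 from macrophages, and it also describes a germline knockout. The control genotype beyond WT is not given in the labels. For the macrophage knockout, the study gives the labelled age beside this comparison and a later age in its methods. Of the 4 Cd36KO libraries, 1 has a count column without a number and is called the unnumbered Cd36KO library.

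Library totals ranged from 2679785 to 4097953 counts. Normalized counts of the Cd36 transcript ranged from 2412 to 3505 in WT and from 1926 to 2384 in Cd36KO libraries, lower in every Cd36KO library and abundant in all. Although the labels also name the stromal vascular fraction, from which mature adipocytes are removed, Adipoq had 2458 to 6294 and Ucp1 4235 to 12312 normalized counts in every library, and no marker of the mature adipocyte or brown adipocyte lists was at 0. The methods state that all mice were males, whereas Xist had 821 to 1433 normalized counts in every library. Of the Y-linked genes, Ddx3y had at most 2.71, and Uty, Kdm5d and Eif2s3y had no counts. That is the pattern of female rather than male mice. WT replicate 1 stood apart from the other WT libraries by the lowest white fat marker sum and the highest skeletal muscle marker sum of its group, and its values are given throughout.

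Of the 39 Hox genes, 25 had at least 1 count, 15 had counts in all 8 libraries, and 12 reached a mean of 10 normalized counts, where a normalized count is a count divided by the library's DESeq2 size factor. The gene just inside this limit was Hoxa3, at 14.2, and the gene just outside was Hoxb7, at 7.59. The 14 genes with no count in any library were Hoxa10, Hoxa11, Hoxa13, Hoxb13, Hoxc10, Hoxc11, Hoxc12 and, of the Hoxd cluster, Hoxd1, Hoxd3, Hoxd4 and Hoxd10 to Hoxd13. A count of 0 in a library allows up to 3 counts, or 0.732 to 1.12 CPM (counts scaled to the library total). The map of Hox means thus broke off after paralogue 9, with a single Hoxc13 count, in WT replicate 1, beyond it. Hoxd3 and Hoxd4 share 62.3% and 52.3% of their annotated exon bases with genes on the same strand, and reads there may have been discarded as ambiguous, so their 0 is uncertain.

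**Figure D1:**
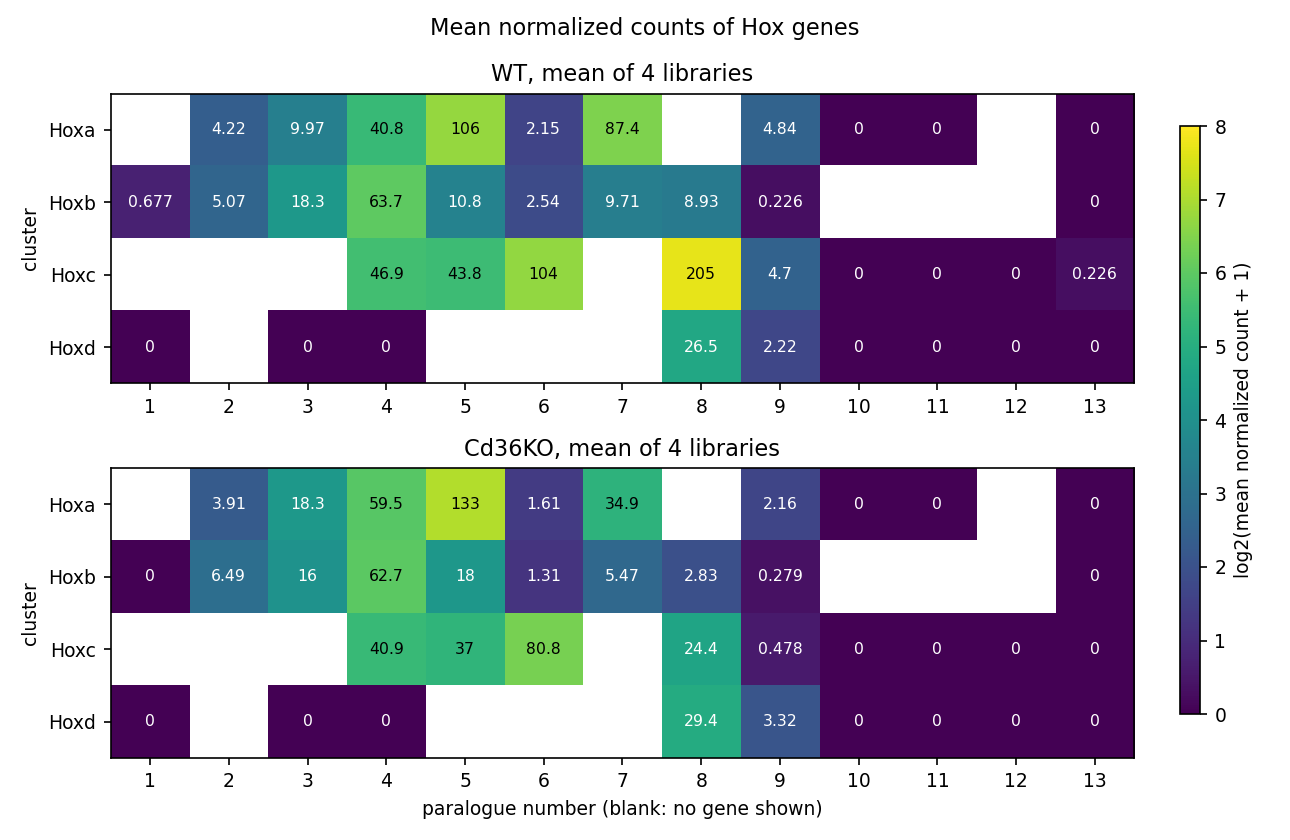
Mean normalized count of the Hox genes shown, in WT (upper panel) and Cd36KO (lower panel), by cluster (rows) and paralogue number (columns), with n = 4 libraries each. The colour gives log2(mean + 1) and the printed number the mean itself. Counts were concentrated in paralogues 4 to 8, and the Hoxc8 square differs most between the panels, at 205 and 24.4.

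The 39 genes held 5680 counts over the 8 libraries, 174 to 308 CPM in a library. Summed over the WT libraries, Hoxc had 1628, Hoxa 1048, Hoxb 499 and Hoxd 124, whereas in Cd36KO Hoxa had 1052, Hoxc 751, Hoxb 451 and Hoxd 127. In WT replicate 1 alone, Hoxa held 37.0% of the Hox counts and Hoxc 36.3%. By paralogue number over all libraries, genes 4 to 6 held 3492 counts, genes 7 and 8 held 1748, genes 1 to 3 held 366 and genes 9 to 13 held 74. On the scale of normalized counts per kilobase of annotated exon, the level averaged over all libraries was highest for Hoxa5 (63.5), followed by Hoxc8 (40.6), Hoxc6 (38.3), Hoxa4 (31.5), Hoxb4 (24.6) and Hoxa7 (21.3). That order held for neither group alone. In WT the level of Hoxc8 per kilobase was 72.6, above Hoxa5 (56.2), and in Cd36KO it was 8.62, below Hoxd8 (10.7). Whether reads covered whole transcripts or only their ends is not stated, so the scale per kilobase may favour short genes.

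Hoxc8 (chr15:102990607-102994111, GRCm38, plus strand, protein-coding) was the gene whose value chose the family. It had 81.2, 150.3, 303 and 287 normalized counts in WT replicates 1 to 4, against 42.3 in the unnumbered Cd36KO library and 25.3, 7.16 and 22.9 in Cd36KO replicates 2, 3 and 4. Every Cd36KO value lay below every WT value, but the WT libraries spread widely, with replicate 1 nearer to the unnumbered Cd36KO library than to WT replicate 3. Means were 205 ± 108 and 24.4 ± 14.4 (SD, n = 4 each), an 8.41-fold lower level in Cd36KO. Its raw counts were 815 over the 4 WT libraries and 97 over the 4 Cd36KO libraries, 7 of them in Cd36KO replicate 3. Its exons share no base with the exons of another gene, although it lies within the span annotated to Hoxc5 on the same strand (chr15:102967443-103017429). In bulk tissue, fewer cells that express a gene and less RNA per cell cannot be told apart.

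The other 3 genes of the Hoxc cluster above the limit, which are read from the same strand as Hoxc8, had smaller differences. Hoxc6, the nearest counted neighbour on the low-numbered side, had 90.3, 104, 136 and 83.1 normalized counts in WT replicates 1 to 4, and 90.2, 69.0, 80.8 and 83.1 in the unnumbered Cd36KO library and replicates 2 to 4. Hoxc5 had 29.8, 33.1, 54.1 and 58.4 in WT, and 33.4, 28.8, 36.8 and 48.8 in Cd36KO, in the same order. Hoxc4 had 46.9, 45.0, 54.1 and 41.5 in WT, and 43.5, 40.3, 31.7 and 48.0 in Cd36KO. The groups overlapped for each of these genes, with means 1.28, 1.19 and 1.15 times as high in WT for Hoxc6, Hoxc5 and Hoxc4. Their DESeq2 log2 fold changes were -0.35 (SE 0.23), -0.23 (SE 0.33) and -0.19 (SE 0.28), against -3.08 (SE 0.45) for Hoxc8. When each library was left out in turn, they ran from -0.44 to -0.19, from -0.40 to -0.055 and from -0.28 to -0.084, and that of Hoxc8 from -3.47 to -2.77. On the high-numbered side, Hoxc9 was hardly detected, with 1, 2, 2 and 14 raw counts in WT replicates 1 to 4 and 2 counts over the 4 Cd36KO libraries, so that WT replicate 4 held most of its 21 counts. Its means were 9.83 times as high in WT, with a log2 fold change of -3.26 (SE 1.49) and no adjusted p, and the groups overlapped.

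**Figure D2:**
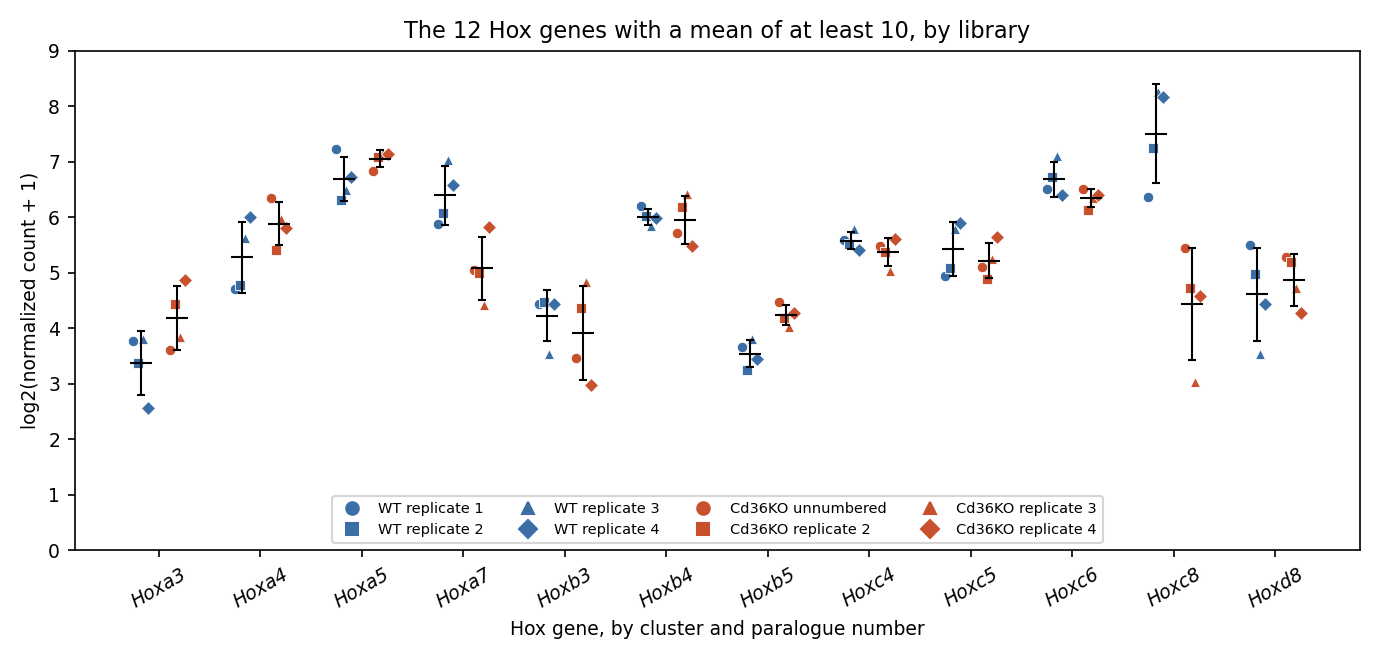
The 12 Hox genes with a mean of at least 10 normalized counts, as log2(normalized count + 1) in each library (WT in blue, Cd36KO in orange, 1 marker shape per library), with the mean and SD of each group in black. Hoxc8 and Hoxa7 were lower in each Cd36KO library than in any WT library, Hoxb5 was higher, and the groups overlapped in the remaining genes.

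The ratio of genes within a library does not depend on how the libraries were scaled. Hoxc8 had 0.90, 1.44, 2.22 and 3.45 counts per Hoxc6 count in WT replicates 1 to 4. It had 0.469, 0.367, 0.0886 and 0.275 in the unnumbered Cd36KO library and replicates 2, 3 and 4. The groups did not overlap, yet the ratio already ran from 0.90 to 3.45 among WT libraries. The exact 95% interval of WT replicate 1 was 0.669 to 1.21 and that of the unnumbered Cd36KO library 0.310 to 0.698, so the nearest libraries of the groups overlapped in counting error. With Hoxc8, the Hoxc cluster held 49.0% ± 8.92 of the Hox counts of a WT library and 31.3% ± 4.00 of those of a Cd36KO library (SD, n = 4 each). With Hoxc8 left out of both the cluster and the total, it held 32.9% ± 3.78 and 28.4% ± 2.85. The other Hoxc genes summed to 199 ± 33.8 normalized counts for WT and 159 ± 18.5 for Cd36KO, 1.25 times as high in WT, and these sums overlapped between the groups.

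**Figure D3:**
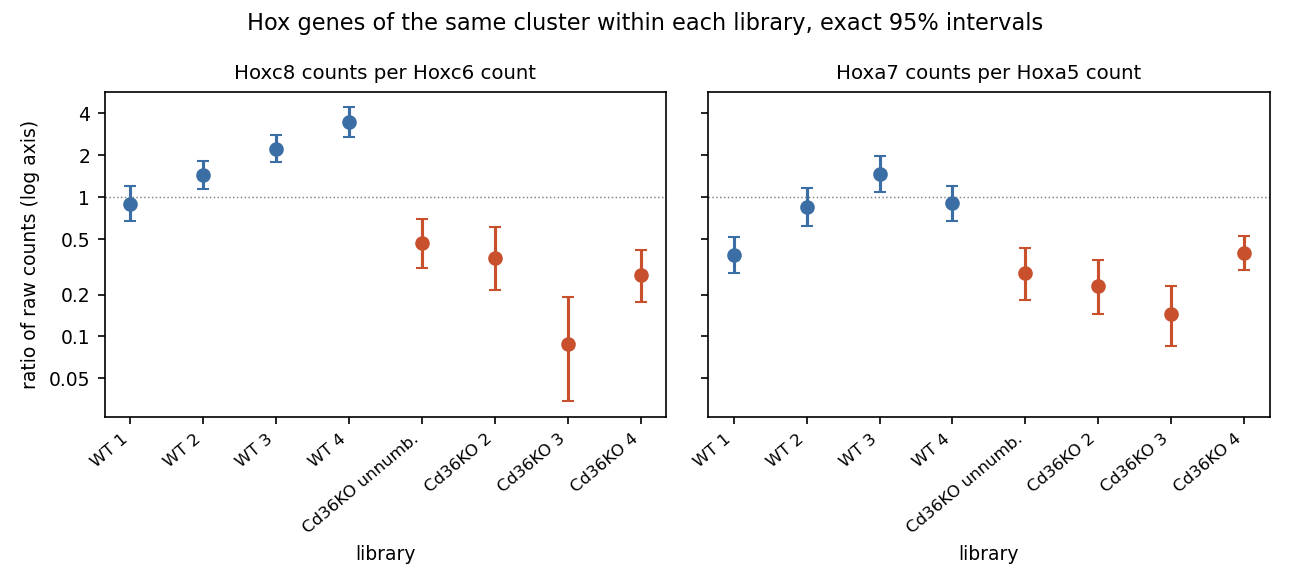
Raw counts of Hoxc8 per Hoxc6 count (left) and of Hoxa7 per Hoxa5 count (right) in each library, on a log axis, with exact 95% binomial intervals that cover counting error only. The dotted line marks a ratio of 1. The Hoxc8 ratios of WT lie at 0.90 and above and those of Cd36KO at 0.469 and below, while the Hoxa7 ratio of WT replicate 1 lies beside that of Cd36KO replicate 4.

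Hoxa7 (chr6:52214491-52221854, minus strand) was the other member below its WT range in all Cd36KO libraries. It had 57.8, 66.3, 131 and 94.96 normalized counts in WT replicates 1 to 4, and 32.3, 31.1, 20.5 and 55.7 in the unnumbered Cd36KO library and replicates 2 to 4. The groups came close without overlapping, with 57.8 in WT replicate 1 and 55.7 in Cd36KO replicate 4. Means were 87.4 ± 32.9 and 34.9 ± 14.9 (SD, n = 4 each), 2.51 times as high in WT, and the DESeq2 log2 fold change was -1.31 (SE 0.36). Of its exon bases, 20.4% overlap the antisense gene Hoxaas3, which had 23 counts in all.

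The other 3 Hoxa genes above the limit, Hoxa3, Hoxa4 and Hoxa5, had higher means in Cd36KO. Hoxa5, which takes part in shaping the neck and chest and is known as a gene of fat cells, had 149.8, 78.1, 89.4 and 105 normalized counts in WT replicates 1 to 4, and 114, 135, 142 and 140.3 in Cd36KO in the order above. Hoxa4 had 25.3, 26.3, 48.2 and 63.3 in WT and 80.2, 41.4, 61.4 and 54.9 in Cd36KO. Hoxa3, the lowest of the 12 by mean normalized count, had 12.6, 9.34, 12.9 and 4.95 in WT and 11.1, 20.7, 13.3 and 28.2 in Cd36KO. In each of these the groups overlapped, and in Hoxa5 WT replicate 1 was the highest of all 8 libraries. Their log2 fold changes were 0.33 (SE 0.24), 0.55 (SE 0.35) and 0.90 (SE 0.51). When each library was left out in turn, they ran from 0.21 to 0.55, from 0.38 to 0.85 and from 0.60 to 1.07. Summed, the Hoxa cluster gave 257 ± 45.9 normalized counts for WT and 256 ± 24.4 for Cd36KO (SD, n = 4). Within it, Hoxa7 had 0.386, 0.848, 1.46 and 0.906 counts per Hoxa5 count in WT replicates 1 to 4, and 0.284, 0.231, 0.144 and 0.397 in the Cd36KO libraries. These ratios overlapped between WT replicate 1 and Cd36KO replicate 4. Per Hoxa4 count, Hoxa7 had 1.5 to 2.71 counts in WT and 0.333 to 1.01 in Cd36KO, without overlap.

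The Hoxb cluster had its highest level at Hoxb4, with 72.2, 63.7, 56.5 and 62.3 normalized counts in WT replicates 1 to 4 and 51.3, 71.3, 84.9 and 43.5 in the unnumbered Cd36KO library and replicates 2 to 4. Hoxb3 had 20.8, 21.2, 10.6 and 20.8 in WT and 10.03, 19.6, 27.6 and 6.86 in Cd36KO. In both genes the Cd36KO values ran from below to above the WT range, with log2 fold changes of -0.03 (SE 0.28) and -0.22 (SE 0.50). Hoxb3 shares 52.9% of its exon bases with the antisense gene Hoxb3os, and the strand setting of the counting is not stated. Hoxb5 was the only member with all Cd36KO values above all WT values. It had 11.7, 8.49, 12.9 and 9.89 normalized counts in WT and 21.2, 17.3, 15.3 and 18.3 in Cd36KO. These are 10 to 24 raw counts a library, and the log2 fold change was 0.75 (SE 0.44).

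Hoxd8 was the single Hoxd gene above the limit, with 44.2, 30.6, 10.6 and 20.8 normalized counts in WT replicates 1 to 4 and 37.9, 35.7, 25.6 and 18.3 in the Cd36KO libraries. The groups overlapped, with a log2 fold change of 0.12 (SE 0.44). Hoxd8 thus shares its paralogue number with Hoxc8 but not the difference. The other paralogues near Hoxc8 and Hoxa7 had few counts. Hoxb7 had 39 raw counts over the 4 WT libraries and 22 over the 4 Cd36KO libraries, Hoxb8 had 36 and 12, and Hoxa9 had 19 and 9. Hoxd9 had 9 and 13. Each of these overlapped between the groups in normalized counts.

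Sums by paralogue number carry the values of Hoxc8 and Hoxa7 and are given only as a description. The 5 genes numbered 7 and 8 summed to 199.5, 265, 475 and 412 normalized counts in WT replicates 1 to 4, and to 119, 101.3, 61.4 and 106 in the unnumbered Cd36KO library and replicates 2 to 4. Means were 338 ± 128 and 97.0 ± 24.9 (SD, n = 4 each), of which Hoxc8 made up 205 and 24.4. Without Hoxc8 the means were 133 ± 26.5 and 72.5 ± 12.6, and without Hoxa7 as well, the other 3 genes had 45.2 ± 12.5 and 37.7 ± 8.55, which overlapped. The 10 genes numbered 4 to 6 summed to 420 ± 41.3 and 434 ± 20.5, and the 8 genes numbered 1 to 3 to 40.5 ± 7.13 and 47.4 ± 12.5. Shares of a library's Hox counts followed, with 40.7% ± 8.75 in WT and 16.6% ± 4.20 in Cd36KO for numbers 7 and 8, and 52.6% ± 7.15 and 74.3% ± 2.76 for numbers 4 to 6. The shares add up to a whole, so the larger share of numbers 4 to 6 in Cd36KO is the counterpart of the smaller one. Without Hoxc8 and Hoxa7, the remaining 37 genes summed to 518 ± 42.5 normalized counts for WT and 526 ± 21.7 for Cd36KO (SD, n = 4).

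**Figure D4:**
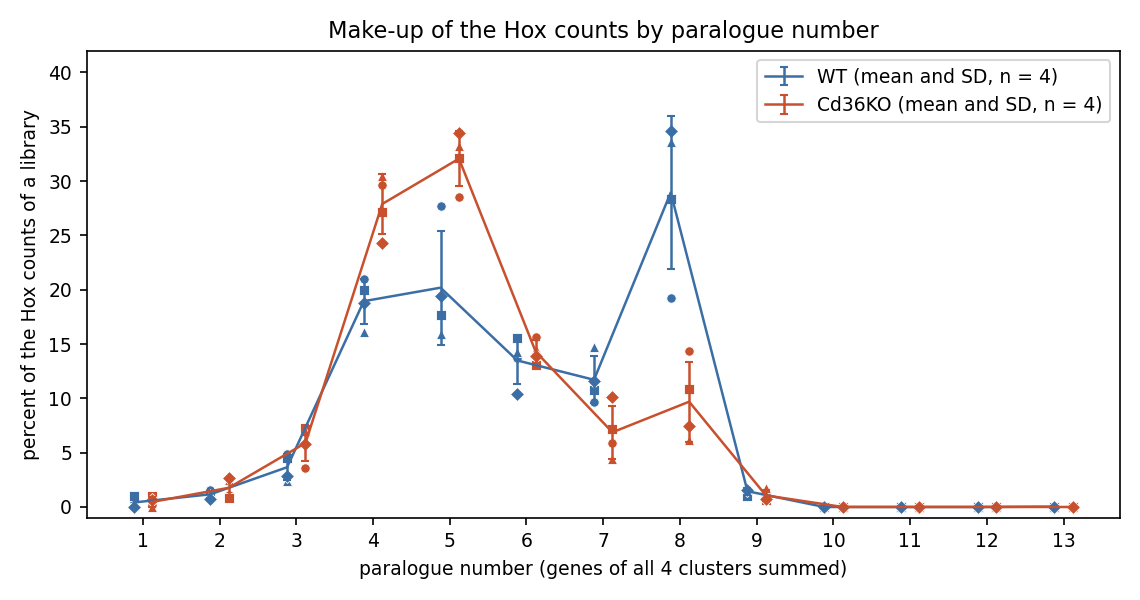
Share of a library's Hox counts held by each paralogue number, summed over the 4 clusters, for WT (blue) and Cd36KO (orange). Points are libraries, and lines with bars give the mean and SD (n = 4 each). At paralogue 8, which includes Hoxc8, the mean was 28.9% in WT and 9.69% in Cd36KO, and beyond paralogue 9 both groups lay at or near 0.

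All 12 genes above the limit received an adjusted p in the DESeq2 fit over all genes, and the other 13 with any count received none. Among the 12, 2 passed an adjusted p of 0.05 and were lower in Cd36KO (Hoxc8 and Hoxa7), where 1.53% of all genes tested were called lower. In DESeq2, 0 were called higher, where 1.42% of all genes were, and 3 Hox genes had an unadjusted p under 0.05, all lower, with Hoxc9 beside these 2. The edgeR quasi-likelihood test called Hoxc8 alone of the 12, where 0.143% of all genes tested passed in either direction, and 3 of the 12 had an unadjusted p under 0.05. Of the 12, 2 did not overlap between groups with lower values in Cd36KO and 1 with higher values, against 3.91% and 4.74% of the 9834 genes with a mean of at least 10. Hoxa7 no longer passed in DESeq2 without WT replicate 2, WT replicate 3, the unnumbered Cd36KO library or Cd36KO replicate 3, with log2 fold changes of -1.42, -1.05, -1.27 and -1.11. Since the family was chosen in this contrast, nothing is read from these counts. The median log2 fold change was -0.11 over the 12 and -0.01 over the 9834, and 7 of the 12 were below 0.

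Marker genes of white fat differed along with Hoxc8. The list of white fat markers without Hox genes, 9 genes that include leptin (Lep) and Aldh1a1, summed to 755, 4385, 5212 and 4705 normalized counts in WT replicates 1 to 4, and to 1124, 810.1, 836 and 704 in the unnumbered Cd36KO library and replicates 2 to 4. WT replicate 1 thus lay within the range of the Cd36KO libraries and well below the other WT libraries. Of the 7 markers with an adjusted p, 5 passed in DESeq2, each lower in Cd36KO (Lep, Agt, Nnat, Aldh1a1 and Npr3), where 1.53% of all genes tested were called lower. In edgeR 3 passed (Lep, Nnat and Aldh1a1), where 0.143% of all genes tested did, and Wt1 and Tcf21 were at 0 in all libraries. In WT replicate 1 Hoxc8 was at 81.2, under the 150.3 to 303 of WT replicates 2 to 4 and above the 7.16 to 42.3 of the Cd36KO libraries. Hoxa7 was at 57.8 there, beside 55.7 in Cd36KO replicate 4, and Hoxa5 at 149.8, above the 114 to 142 of Cd36KO and the 78.1 to 105 of WT replicates 2 to 4. With the mean of the white fat markers as a covariate in DESeq2, the log2 fold change of Hoxc8 moved from -3.08 to -1.51 and that of Hoxa7 from -1.31 to -0.63, and that of Hoxa5 changed sign, from 0.33 to -0.25. Without WT replicate 1, the log2 fold change was -3.35 for Hoxc8 and -1.46 for Hoxa7. Apart from WT replicate 1, the marker sums of the groups did not overlap, so the values with this covariate depend on that library. The part of white fat in these differences was not tested.

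**Figure D5:**
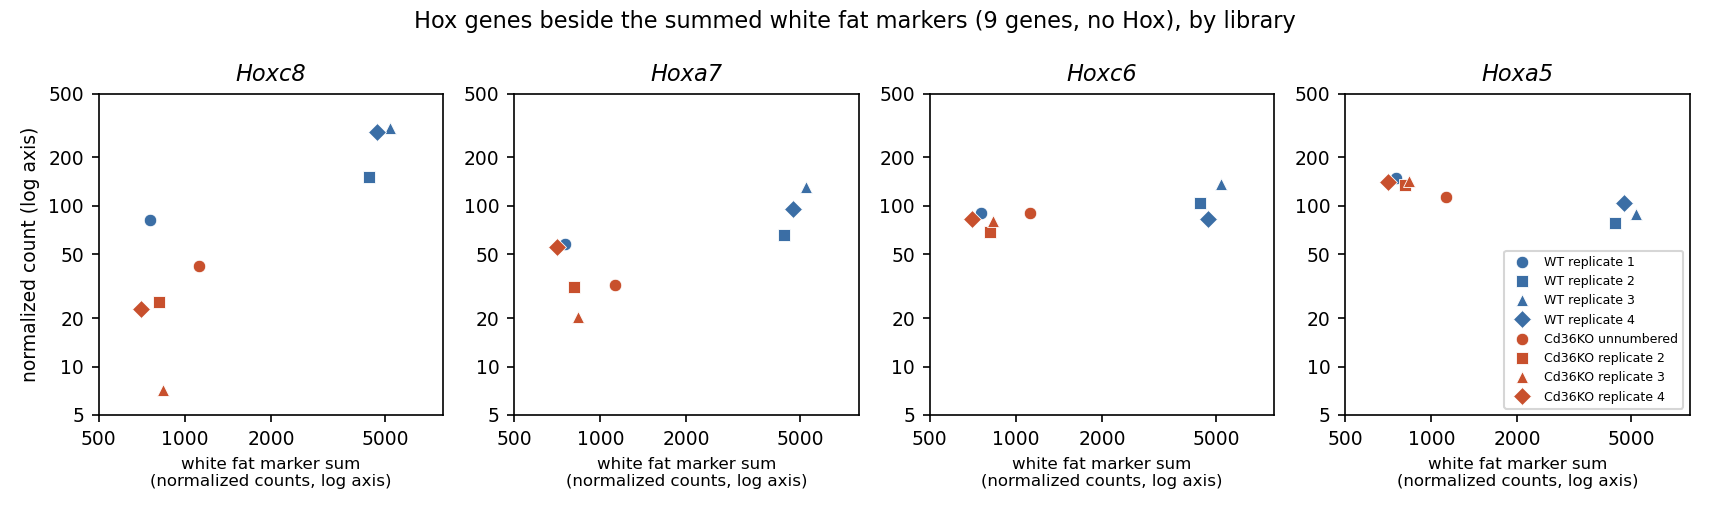
Normalized counts of Hoxc8, Hoxa7, Hoxc6 and Hoxa5 in each library against the summed normalized counts of the 9 white fat markers, on log axes (WT in blue, Cd36KO in orange). WT replicate 1 (blue circle) lies at a marker sum of 755 among the Cd36KO libraries, with Hoxc8 at 81.2 and Hoxa5 at 149.8, each above the Cd36KO values of its gene.

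Other cell types were followed in the same way. The 8 brown adipocyte markers summed to 17420 to 22991 normalized counts in WT and to 31244 to 40077 in Cd36KO, with none of the 8 at 0. Ucp1, Cidea, Cox7a1 and Cox8b passed in DESeq2, each higher, where 1.42% of all genes tested were called higher, but 0 of the 8 passed in edgeR, while 6 had an unadjusted p under 0.05 in each tool. The 10 markers of stromal progenitors, cells known to carry Hox patterns, summed to 3832 to 7121 in WT and 2807 to 3606 in Cd36KO, with none at 0. Gsn passed in DESeq2, lower, where 1.53% of all genes tested were called lower, but 0 of the 10 passed in edgeR, while 1 had an unadjusted p under 0.05 in each tool. The skeletal muscle list (15 genes, none at 0) summed to 705 to 56857 in WT, highest in replicate 1, and to 56.3 to 8011 in Cd36KO. In DESeq2 or edgeR 0 muscle genes passed, while 7 had an unadjusted p under 0.05 in DESeq2 and 13 in edgeR. The share of all genes at an unadjusted p under 0.05 was not taken, so these counts have no background beside them. With the muscle score as a covariate, the log2 fold change of Hoxc8 was -3.03. The sums of the other 7 lists (mature adipocyte, endothelial, macrophage, keratinocyte, lymphoid, Schwann and smooth muscle) overlapped between groups. The part of these cell types in the Hox differences was not tested.

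The Hoxa, Hoxb and Hoxc clusters also encode microRNAs of the miR-196 family, which are known to act on Hox transcripts, miR-196a on Hoxb8 and Hoxc8 in particular. MicroRNA levels were not analysed here. Their mature sequences and matching sites are shown because 3 of the 5 genes with paralogue number 7 or 8 match their seed (bases 2 to 8). Hoxc8 and Hoxa7 are among these, and Hoxb8 holds a longer site of another kind. The mature miR-196a-5p is encoded within the Hoxb cluster (chr11:96265187-96265208) and the Hoxc cluster (chr15:102973365-102973386), and miR-196b-5p within the Hoxa cluster (chr6:52230129-52230150, minus strand), with sequences from RefSeq on GRCm38 and the seed, bases 2 to 8, in capitals.
miR-196a-5p: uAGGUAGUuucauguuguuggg
miR-196b-5p: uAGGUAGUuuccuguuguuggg

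The seed match, ACTACCT on the strand of the transcript, occurred in the annotated 3′ UTR of 9 of 39 Hox genes, against 6.1% of 20935 mouse 3′ UTRs searched, with median lengths of 966 and 967 bases. Among them were Hoxa4, Hoxa5, Hoxa7, Hoxa9, Hoxb6, Hoxb7 and Hoxc8. Hoxa7 had 4 matches and Hoxc8 had 2, the others 1 each. The sites of Hoxc8 and the Hoxa7 site with most pairs are given 5′ to 3′, with the seed match in capitals.
Hoxc8, chr15:102992976-102992997, plus strand: cactcacaactctaACTACCTg
Hoxc8, chr15:102993733-102993754, plus strand: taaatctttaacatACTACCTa
Hoxa7, chr6:52215210-52215231, minus strand: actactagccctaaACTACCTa

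Hoxb8 carries a site of another kind, which pairs along the whole of miR-196a-5p. Of its 22 bases, 21 form Watson-Crick pairs (capitals) and 1 a G:U wobble pair (lower case), and it was the only 3′ UTR of 20914 with at least 20 Watson-Crick pairs to that microRNA.
Hoxb8, chr11:96284888-96284909, plus strand: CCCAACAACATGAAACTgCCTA
Hoxb8 itself had few counts, 36 and 12 raw counts over the WT and Cd36KO libraries, with groups that overlapped and no adjusted p. The seed match of the miR-10 family, ACAGGGT, from microRNAs encoded in the Hoxb and Hoxd clusters, occurred in 4 Hox genes, Hoxa3 and Hoxb3 among them, and in 12.5% of the 3′ UTRs searched. A match is a description of sequence and says nothing about activity in these libraries.

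Of 17 other counted genes that lie within the 4 clusters, 10 had counts and 2 reached a mean of 10 normalized counts, both antisense transcripts. Hotairm1, which is transcribed from the opposite strand at the low-numbered end of the Hoxa cluster, had 107, 137, 176 and 168 normalized counts in WT replicates 1 to 4 and 141, 154, 162 and 155 in the Cd36KO libraries. Hoxb3os had 43.3, 39.9, 60.0 and 21.8 in WT and 27.9, 31.1, 29.7 and 35.8 in Cd36KO. Both overlapped between groups, with log2 fold changes of 0.06 and -0.40 and DESeq2 adjusted p of 0.932 and 0.639. Hotair, in the Hoxc cluster, had no counts.

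The proteins that work with Hox factors and those that set Hox expression were counted from 8 lists of 97 genes, of which 64 had an adjusted p, and 3 passed in DESeq2, all lower in Cd36KO, where 1.53% of all genes tested were called lower and 1.42% higher. In edgeR 2 of the 97 passed, where 0.143% of all genes tested did. Of the TALE homeodomain cofactors, which bind DNA together with Hox proteins, 0 of 6 with an adjusted p passed in DESeq2 and 0 in edgeR (1 at an unadjusted p under 0.05 in each), and the most abundant, Pbx2, had means of 136 ± 30.3 and 177 ± 43.9 (SD, n = 4 each; DESeq2 adjusted p = 0.454). Cdx factors, which turn on Hox genes in the embryo, were at 0 for all 3 genes. Polycomb proteins, which keep Hox clusters silent, and trithorax proteins, which keep them active, had 0 of 19 and 0 of 10 past the threshold in DESeq2 and 0 in edgeR, with Pcgf2 and Kdm6b at an unadjusted DESeq2 p under 0.05. Their most abundant members were Jarid2, at 233 ± 18.3 in WT and 287 ± 43.6 in Cd36KO, and Kmt2a, at 355 ± 71.3 and 279 ± 22.5. For CTCF and cohesin, which partition the clusters, 0 of 7 passed in DESeq2 or edgeR, 0 also at an unadjusted p under 0.05, and Nipbl, the loader of cohesin, had 906 ± 44.8 and 841 ± 106.

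The 3 genes that passed belonged to retinoid metabolism and to other positional transcription factors. Aldh1a1, which makes retinoic acid, an inducer of Hox genes, had 75.8, 97.7, 56.5 and 107 normalized counts in WT replicates 1 to 4 and 34.5, 20.7, 12.3 and 28.2 in the Cd36KO libraries (log2 fold change -1.81, SE 0.34, DESeq2 adjusted p = 8.09e-05, edgeR adjusted p = 0.0394). It was the only 1 of 9 retinoic acid pathway genes with an adjusted p to pass, and it also stands in the white fat list. Tbx15, a T-box factor of limb and shoulder girdle that marks some fat depots, had 39.7, 32.3, 25.9 and 22.8 in WT and 5.57, 4.60, 7.16 and 6.10 in Cd36KO (log2 fold change -2.36, SE 0.47, DESeq2 adjusted p = 0.000236, edgeR adjusted p = 0.0394). Unlike Hoxc8, Tbx15 had its highest value in WT replicate 1. Prrx1, a homeodomain factor of limb mesenchyme and stromal cells, had 47.8, 68.8, 75.3 and 53.4 in WT and 32.3, 39.1, 25.6 and 25.2 in Cd36KO (log2 fold change -1.01, SE 0.30, DESeq2 adjusted p = 0.0320, edgeR adjusted p = 0.110). Each of the 3 was lower in all 4 Cd36KO libraries than in any WT library. When each library was left out in turn, Aldh1a1 passed in all 8 DESeq2 fits, Tbx15 in the 5 fits that gave it an adjusted p, and Prrx1 in 3 of 8, not without WT replicate 2 or 3, the unnumbered Cd36KO library, or Cd36KO replicate 3 or 4 (highest adjusted p 0.206). These were 2 of 11 positional factors with an adjusted p, and the most abundant of that list, Nr2f2, had means of 198 ± 45.3 and 165 ± 15.7 (adjusted p = 0.577).

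Of the Hox targets described in fat, Cebpb, which Hoxc8 is known to repress, had 200.4, 164, 163 and 147 normalized counts in WT replicates 1 to 4 and 224, 221, 200.5 and 233 in the Cd36KO libraries. Its groups did not overlap, by 200.4 in WT replicate 1 against 200.5 in Cd36KO replicate 3. Of the 9834 genes with a mean of at least 10, 4.74% likewise had higher values in Cd36KO without overlap. Cebpb did not pass (log2 fold change 0.38, SE 0.17, DESeq2 adjusted p = 0.240). Prdm16, a regulator of the brown fat programme, had 113, 59.5, 84.7 and 76.2 in WT and 137, 156, 108 and 169 in Cd36KO, which overlapped. Its log2 fold change was 0.78 (SE 0.25, DESeq2 adjusted p = 0.0572, edgeR adjusted p = 0.140). Both genes had an unadjusted p under 0.05 in DESeq2 and in edgeR.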

How the data were processed

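Bulk RNA-seq of BAT was analysed in 4 WT and 4 Cd36KO libraries, grouped by their labels. By the study's methods text, single-end reads were trimmed with bbduk, mapped to mm10 with STAR and assigned to genes with HTSeq-count. The submitters' processing notes instead name Trimmomatic and HISAT2, which the study's list of resources also holds. The deposited table used here holds raw counts per gene. The authors also deposited log2 values, which equal log2 of the count over a size factor plus 1. Neither the annotation release nor the strand setting, nor whether molecular identifiers were used, is given in the sources used here. Totals of 2679785 to 4097953 counts limit genes with few counts, and floors of 3 counts and exact 95% binomial intervals cover counting error only.

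Hox genes were found by symbol among 30934 of 31053 identifiers that matched GENCODE M21 (GRCm38). Coordinates and UTRs came from that annotation and its transcripts, and are 1-based. Exon length is the union of a gene's exons. Differences were fitted across all genes with DESeq2 1.42.0, the tool the study names without its settings (here the Wald test, genotype only, unshrunken fold changes, Benjamini-Hochberg adjustment), with edgeR 4.0.16 and limma 3.58.1 as alternatives in R 4.3.3. The fits were tested on simulated counts. The study gives 4 mice a group for this comparison, and the libraries were taken as separate animals, although the labels tie no library to a mouse. The lowest chi-square per degree of freedom between libraries of a group was 6.30, so no pair agreed within sampling noise.

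Values in every library are given for each Hox gene whose normalized counts average at least 10. From each list of related genes, those past an adjusted p of 0.05 are named, or, where none passed, the gene with the highest count. Counts of genes at an unadjusted p under 0.05 are given without the share of all genes at that threshold. Some results for single genes were left out and are not reported here. Members and lists were chosen with earlier results of these data known.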

Additional observations from a re-analysis of the deposited data

Results flagged for a closer look

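Among the 24 groups of 4 libraries formed by the 12 Hox genes above the limit, 1 held a library far from the others, where chance flags about 1 in 20 groups. WT replicate 3 had a log2(normalized count + 1) of 3.53 for Hoxb3, against 4.44 to 4.47 in the other WT libraries. In raw counts these were 9 against 21 to 25. Hoxb3 overlaps the antisense gene Hoxb3os, which was highest of all 8 libraries in the same library, at 60.0 normalized counts.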

How the results depend on the processing

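Hoxc8, whose fall in these libraries chose the family, kept its direction and its side of the threshold in all 17 alternative fits. Its log2 fold change ran from -3.81 to -1.51. The fits reuse the libraries that chose it, so they are a description and support nothing about the family. Hoxa7 kept its direction, from -1.64 to -0.63, and passed in 9 of 17. Why the results below changed was not tested. The 2 Hox genes past the threshold became 1, Hoxc8, with edgeR, with limma on the authors' log2 values, and with the muscle or the white fat score as a covariate, where Hoxa7 was at -1.30, -1.32, -1.43 and -0.63 in that order, and 1 to 2 when a library was left out (Hoxa7 was lost without WT replicate 2, WT replicate 3, the unnumbered Cd36KO library or Cd36KO replicate 3). Over all genes, 284 calls became 14 with edgeR, 5 with limma, 171 without independent filtering, 182 with the muscle score and 553 with the white fat score (446 higher, 107 lower, against 137 and 147), and 69 to 507 without a library. The 3 Hox genes whose groups did not overlap became 3 to 6 without a library, most without WT replicate 4. With all 8 libraries, 3.91% (lower) and 4.74% (higher) of the 9834 genes with a mean of at least 10 did not overlap. No such share was taken without a library, where groups separate more easily, so nothing is read from the rise. Without Hoxa5, the gene with the highest count, the share of the Hoxc cluster in Cd36KO moved from 31.3% to 40.4% and that in WT from 49.0% to 56.3%. Leaving out a library gave 46.6% to 53.2% in WT and 29.9% to 32.8% in Cd36KO.

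Hox genes that did not pass changed sign in some fits. With the white fat score, Hoxa4 kept its sign, at 1.36, while Hoxa5 went to -0.25, Hoxc5 to 0.34 and Hoxd8 to -0.57. Without a library, Hoxb3 ranged from -0.63 to 0.051, Hoxb4 from -0.21 to 0.12 and Hoxd8 from -0.13 to 0.48. Replicate numbers 2, 3 and 4 are shared by both groups. Deviations from the group means correlated at -0.13, 0.42 and 0.14 in these pairs, not above 0.1 in each, and 1 of the 3 WT libraries correlated best with its own number. With the replicate block over the 3 pairs, 2 Hox genes and 219 genes in all passed, against 2 and 262 in the same libraries without it, a fit added after seeing the data, and Hoxb4 was at 0.082 with and 0.12 without the block, Hoxa4 at 0.25 and 0.21, and Hoxb3 at 0.013 without it. The 13 Hox genes with counts but a mean under 10, Hoxb7, Hoxb8, Hoxa9 and Hoxc9 among them, had no adjusted p in DESeq2 and were not called either way.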
